A study of Mus musculus with 6 samples.

Results

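The transcription factors described here mark and pattern the mesenchyme of the embryonic mouse lung. They are *Tbx2*, *Tbx3*, *Tbx4*, *Tbx5*, *Foxf1*, *Foxf2*, *Tcf21*, *Nr2f2*, *Meox2* and *Osr1*, and they were chosen by symbol from the gene column of the E11.5 table. All 10 had a row among the 23420 genes listed, and all 10 passed the filter on low values that left 17168 genes for testing. RNA was taken from whole embryonic lungs at E11.5 (days post coitum), with several lungs of 1 genotype in each pool. The 3 control pools carried Raptorf/+; ShhCre/+, and the 3 mutant pools carried Raptorf/f; ShhCre/+. Both groups therefore carried the Cre inserted at 1 copy of *Shh*, which is expressed in the lung epithelium and not in the mesenchyme, and the controls also carried 1 floxed copy of *Rptor*. The lungs were not sorted, so each value sums over mesenchyme, epithelium, vessels and any attached tissue. In mutants the targeted cells are epithelial, and the comparison asks whether the neighbouring mesenchyme had altered transcript levels of its own transcription factors.

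The lung mesenchyme surrounds the branching epithelial tubes and sends them growth factor signals, of which FGF10 is the best known. T-box, forkhead, basic helix-loop-helix, nuclear receptor, homeobox and zinc-finger factors act in these cells. Hedgehog ligand made by the epithelium is received in the mesenchyme, where forkhead genes of the *Foxf* group are known to respond to it, and *Tbx4* and *Tbx5* act upstream of *Fgf10* in lung budding and branching.

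*Rptor*, the targeted gene, encodes the Raptor subunit of mTOR complex 1. Its normalized counts (reads divided by the size factor of the library) were 2126, 2193 and 2279 in the control pools and 2023, 2137 and 2148 in the mutant pools. The groups overlapped, with a log2 fold change of -0.06 (SE 0.05) and a limma adjusted p of 0.584. Reads were counted over the whole gene and in whole lungs, so this value does not measure the loss of the floxed part in the epithelium. Between 20197642 and 21276090 reads were recovered per library. The 18 epithelium markers summed to 17212 to 21574 in the control pools and 13544 to 14709 in the mutant pools, with 7 lower in mutants by limma. The 18 mesenchyme markers were all detected and summed to 150149 to 155464 in the controls and 177313 to 179456 in the mutants, with 3 higher by limma (*Col1a1*, *Col1a2* and *Col3a1*, which encode fibrillar collagen chains). These 3 were the most abundant of the 18 and carried much of the difference in the sums. The median log2 fold change of the 18 was 0.15, with 16 above 0 and 2 below.

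Promoter sequences of 5 of the 10 genes (*Nr2f2*, *Tcf21*, *Tbx4*, *Meox2* and *Foxf2*) were matched in RefSeq (GRCm38.p6). The 3 shown belong to the genes with the lowest unadjusted p that had an entry. Each runs 5′ to 3′ over 200 bases and ends 50 bases before the RefSeq start site. For *Nr2f2*, *Tcf21* and *Tbx4* this site differs from the gene coordinates given below, and the *Tbx4* window lies inside the gene. Capitals mark the letters CCAAT or GGGCGG on either strand.
Nr2f2, chr7:70366797-70366996, minus strand: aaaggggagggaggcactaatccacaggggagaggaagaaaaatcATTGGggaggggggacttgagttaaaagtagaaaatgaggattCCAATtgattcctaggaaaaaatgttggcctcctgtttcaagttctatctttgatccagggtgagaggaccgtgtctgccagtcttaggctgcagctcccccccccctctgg
Tcf21, chr10:22820194-22820393, minus strand: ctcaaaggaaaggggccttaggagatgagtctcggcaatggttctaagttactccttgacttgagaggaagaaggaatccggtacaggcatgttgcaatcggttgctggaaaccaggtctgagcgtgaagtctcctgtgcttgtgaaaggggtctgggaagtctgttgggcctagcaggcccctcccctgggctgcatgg
Meox2, chr12:37108290-37108489, plus strand: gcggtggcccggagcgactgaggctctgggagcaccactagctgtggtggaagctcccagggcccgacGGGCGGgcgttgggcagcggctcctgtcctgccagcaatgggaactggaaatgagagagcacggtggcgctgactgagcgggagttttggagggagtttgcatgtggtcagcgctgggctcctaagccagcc
The *Nr2f2* window held 2 CCAAT matches, 1 on each strand, and the *Meox2* window held 1 GGGCGG match, whereas the *Tcf21* window held neither. Among 32851 windows of this length, 28.4% held CCAAT and 24.6% held GGGCGG. The letters AGGTGTGA (a T-box site), GACCACCCA (a GLI site) and TGTTTAC (a forkhead site) were searched on both strands and were in none of the 5 windows. They were in 0.922%, 0.192% and 2.58% of all windows. The 3 windows also differed in base composition, with 50% G and C for *Nr2f2*, 54.5% for *Tcf21* and 66% for *Meox2*.

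None of the 10 transcription factors differed between mutant and control lungs at an adjusted p below 0.05 (limma on log2(normalized count + 1), 3 pools against 3). At that threshold 0.501% of all tested genes were called, 0.186% with a higher and 0.315% with a lower mean in mutants. At an unadjusted p below 0.05 there were 4 of the 10 genes, *Tcf21*, *Nr2f2*, *Tbx5* and *Meox2*, each with a higher mean in mutants on the deposited scale, against 13.6% of all tested genes in either direction 6.67% with a higher and 6.89% with a lower mean. DESeq2 also called 0 of the 10 at an adjusted p below 0.05, with 3 at an unadjusted p below 0.05. Among all 19100 genes in the DESeq2 fit, 277 were called and 1569 had an unadjusted p below 0.05. The edgeR fit of 6 libraries called 0 factors, with 4 unadjusted, beside 79 called and 2190 unadjusted among 14670 genes. *Tcf21*, *Nr2f2*, *Tbx5* and *Meox2* were also the 4 factors whose 3 mutant values all lay above the 3 control values. This pattern was found in 9.77% of all tested genes. In bulk RNA, a larger share of mesenchymal cells and more transcript per mesenchymal cell cannot be told apart.

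The fitted log2 fold change was above 0 for 7 of the 10 genes and below 0 for 3 (*Tbx3*, *Foxf2* and *Osr1*), with a median of 0.12 beside -0.002 over all tested genes. With the mesenchyme markers as the scale instead, the median of all tested genes moved to -0.20 and that of the 10 factors to -0.08. *Meox2* alone of the 10 then kept a value above 0. The reference was the average log2 value of the 18 markers, so a few markers with large changes weigh on it. The markers included *Lum* (0.59), the called *Col1a1* (0.49) and *Thy1* (0.47, control mean 27.8), and 2 of the 18 were below 0. Their median was 0.15, and of the 10 factors only *Tbx2* (0.19), *Tcf21* (0.19) and *Meox2* (0.21) lay above it. Scaling to that median was not run. The highest and lowest bounds of the 95% intervals over the 10 genes were 0.40 (*Tbx2*) and -0.19 (*Osr1*). For *Tbx3*, *Foxf1*, *Foxf2* and *Osr1*, the whole interval lay within 0.2 of 0 on the deposited scale. With the mesenchyme scaling their fitted values were -0.22, -0.17, -0.23 and -0.22. Among the 32 called genes with a mean of at least 1000, the smallest absolute log2 fold change was 0.22. The 9 factors with means of at least 1000, that is all but *Meox2*, had fitted values below this. Calling also depends on the spread of each gene between pools, so 0.22 is not a limit of detection.

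**Figure D1:**
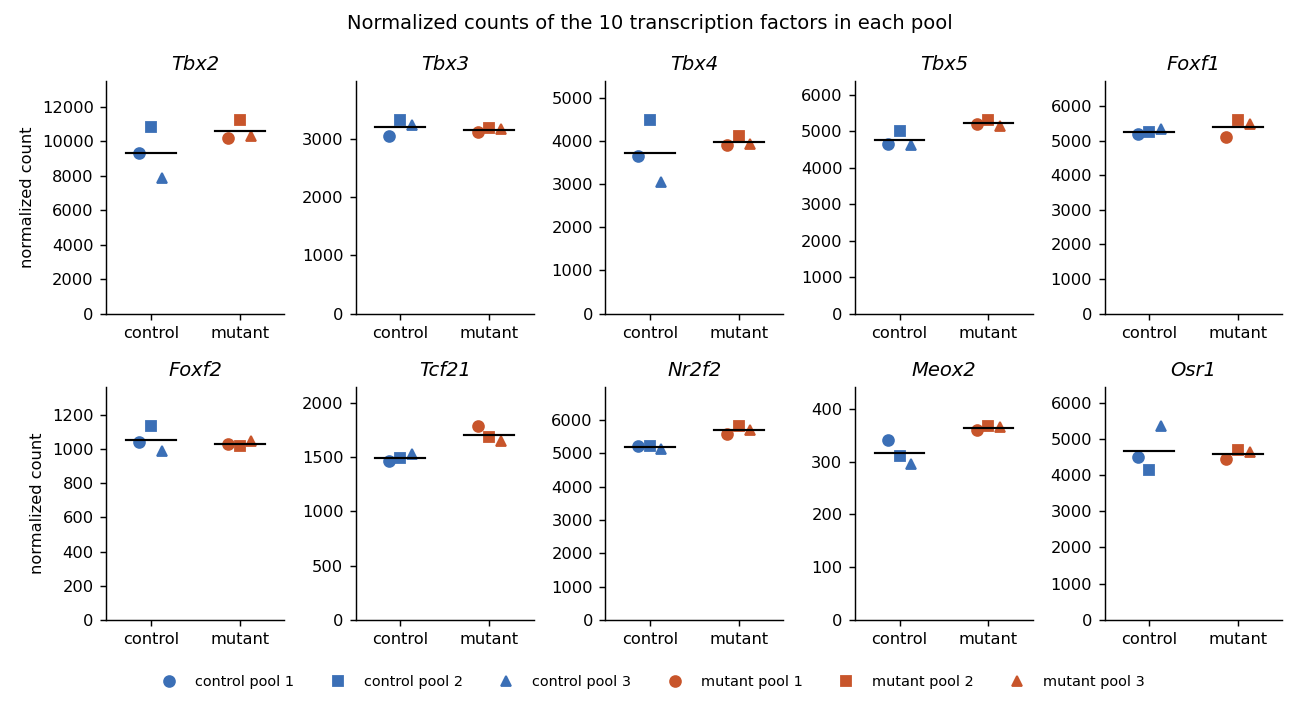
Normalized counts of the 10 transcription factors in each pool, with 1 panel per gene, a point per pool (shape gives the pool number), horizontal lines for the group means and axes that start at 0. The mutant points lie above all control points for *Tcf21*, *Nr2f2*, *Tbx5* and *Meox2*, and the groups overlap for the other 6 genes, with wide control spreads for *Tbx2*, *Tbx4* and *Osr1*.

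**Figure D2:**
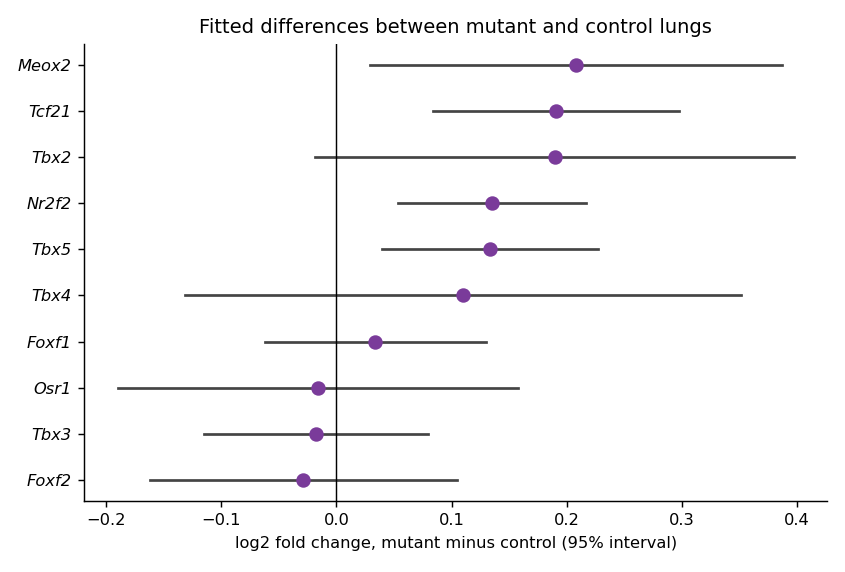
Fitted log2 fold changes (mutant minus control, limma) of the 10 transcription factors as points, with lines for the 95% intervals, on the deposited scale. *Meox2* has the highest value, 0.21, and no gene has an adjusted p below 0.05. With the average of the mesenchyme markers as the scale, the values of *Tbx2*, *Tbx4*, *Tbx5*, *Foxf1*, *Tcf21* and *Nr2f2* turn below 0.

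The T-box genes lie in 2 neighbouring pairs. *Tbx2* (chr11:85832551-85841948, plus strand, GRCm38) and *Tbx4* (chr11:85886422-85916097, plus strand) are 44473 bases apart, and *Tbx3* (chr5:119670669-119684724, plus strand) and *Tbx5* (chr5:119832668-119885219, plus strand) are 147943 bases apart. *Tbx2* and *Tbx3* encode transcriptional repressors that act on cell cycle inhibitors, whereas *Tbx4* and *Tbx5* encode activators.

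*Tbx2* had normalized counts of 9330.2, 10805 and 7882 in the control pools and 10185, 11246 and 10289 in the mutant pools. The groups overlapped, because control pool 2 lay above mutant pools 1 and 3, and control pool 3 was the lowest of the 6. The means were 9339 ± 1461.5 and 10573 ± 585 (SD, n = 3), a fold change of 1.14 (95% interval 0.987 to 1.32) with a limma adjusted p of 0.406. On the log2 scale the change was 0.19, and it was 0.073 without control pool 3 and 0.30 without control pool 2.

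*Tbx4* had 3652, 4491 and 3045 normalized counts in controls and 3898, 4104 and 3924 in mutants. It followed the same order of control pools as *Tbx2*, with pool 2 highest and pool 3 lowest, and all mutant values fell inside the control range. The log2 fold change was 0.11 (SE 0.11, limma adjusted p = 0.709), and it was -0.03 without control pool 3.

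*Tbx5* had 4644, 5000.2 and 4631 normalized counts in controls and 5195, 5310.2 and 5148 in mutants. Every mutant pool was above every control pool, and control pool 2 was nearest to the mutants. The fold change was 1.10 (95% interval 1.03 to 1.17), with an unadjusted p of 0.00988 and an adjusted p of 0.1996 by limma.

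*Tbx3* had 3048, 3329 and 3233 normalized counts in controls and 3127, 3191 and 3166 in mutants. The mutant values lay inside the control range, and the log2 fold change of -0.02 (95% interval -0.12 to 0.08) had a limma adjusted p of 0.897. *Tbx3* shares 115 exon bases with the opposite-strand gene *Tbx3os1*, and no source used here says whether counting used the strand.

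Ratios within a pool do not depend on the size factor. The log2 ratio of *Tbx3* to *Tbx5* was -0.61, -0.59 and -0.52 in the control pools and -0.73, -0.73 and -0.70 in the mutant pools. All 3 mutant ratios were below the control ratios, by 0.15 on average (-0.72 ± 0.02 against -0.57 ± 0.05, SD, n = 3), and the exact two-sided permutation p was 0.1, the smallest that 3 pools against 3 can give (0.15 adjusted over 3 ratios). The log2 ratio of *Tbx2* to *Tbx4* was 1.35, 1.27 and 1.37 in controls and 1.39, 1.45 and 1.39 in mutants. The groups did not overlap here either, with a difference of 0.079 and an exact permutation p of 0.1 (0.15 adjusted). Without control pool 2 the difference was 0.047 (exact permutation p = 0.3). On the log2 scale, the SD over the control pools was 0.23 for *Tbx2* and 0.28 for *Tbx4*, and 0.06 for the ratio between them.

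*Foxf1* and *Foxf2* encode related forkhead factors of visceral mesenchyme. *Foxf1* (chr8:121084386-121088144, plus strand) had 5207, 5257 and 5334 normalized counts in controls and 5105, 5605 and 5473 in mutants. Mutant pool 1 was the lowest and mutant pool 2 the highest of the 6, so the groups overlapped. Its control values were within 1.02-fold of each other, and the log2 fold change of 0.03 (95% interval -0.06 to 0.13) had a limma adjusted p of 0.777. Leaving out a pool gave 0.0055 (without mutant pool 2) to 0.073 (without mutant pool 1).

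*Foxf2* (chr13:31625816-31631403, plus strand) had 1039, 1135 and 987 normalized counts in controls and 1029, 1016 and 1049 in mutants. All mutant pools lay inside the control range, and the log2 fold change was -0.03 (95% interval -0.16 to 0.10, limma adjusted p = 0.876). The log2 ratio of *Foxf1* to *Foxf2* was 2.32 ± 0.11 in controls and 2.38 ± 0.08 in mutants (SD, n = 3). The ratios overlapped, with a difference of 0.063 and an exact permutation p of 0.5. The difference was 0.0065 without control pool 2 and 0.12 without control pool 3.

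The Hedgehog genes that bear on the forkhead pair were measured in the same pools. For *Shh*, the ligand gene that also carries the Cre, the fitted log2 change was -0.03 (limma adjusted p = 0.854), and its targets *Gli1* and *Hhip* had -0.08 and 0.06. *Ptch1*, the receptor gene that is itself a target, had -0.13 (limma adjusted p = 0.334). Of the 13 signal and receptor genes tested, 0 were called after adjustment and 4 had an unadjusted p below 0.05. Of these, *Aldh1a2*, which encodes a retinoic acid synthesis enzyme, and *Gli3* had positive log2 fold changes of 0.16 and 0.13, and *Fgfr2*, which encodes the epithelial FGF10 receptor, and *Ptch1* had negative ones of -0.22 and -0.13.

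*Tcf21*, a basic helix-loop-helix factor gene of lung mesenchyme (chr10:22817281-22820174, minus strand), had the lowest p of the 10. Its normalized counts were 1464.5, 1497 and 1531 in controls and 1789, 1687 and 1653 in mutants. The groups were separate, with means of 1497 ± 33.1 and 1709.8 ± 70.8 (SD, n = 3). The fold change was 1.14 (95% interval 1.06 to 1.23), with an unadjusted p of 0.00260 and an adjusted p of 0.129 by limma. Without control pool 3 the limma adjusted p was 0.0396, with a log2 fold change of 0.21. In that fit 468 of 16993 tested genes were called, beside 86 with all pools. Leaving out any other pool gave *Tcf21* limma adjusted p of 0.134 to 0.370.

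The 5 tested genes most like *Tcf21* across the 6 pools, by root mean square difference of log2 values centred on their own mean, were *Zfp688* (0.0171), *B3gnt8* (0.0189), *Rap1b* (0.0212), *Eltd1* (0.0247) and *Klhdc8b* (0.0251). *Rap1b*, a small GTPase gene and the most abundant of these, had 3156, 3215 and 3219 normalized counts in controls and 3696, 3533 and 3469.7 in mutants. Like *Tcf21*, it was highest in mutant pool 1 and nearly level over the control pools. None of the 5 was called (limma adjusted p of 0.134 for *Rap1b* and 0.377 for *Zfp688*).

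*Nr2f2*, which encodes the nuclear receptor COUP-TFII of mesenchyme and veins (chr7:70351944-70366735, minus strand), had 5209.7, 5231 and 5125 normalized counts in controls and 5577, 5827 and 5693 in mutants. The control values were close together and all lay below the mutants, with means of 5188 ± 56.0 and 5699 ± 125 (SD, n = 3). The fold change was 1.10 (95% interval 1.04 to 1.16), with an unadjusted p of 0.00408 and an adjusted p of 0.150 by limma. Its exons share 643 bases with the opposite-strand gene *B130024G19Rik*, which had 130 to 162 normalized counts over the 6 pools. The 12 endothelium markers, which bear on a gene also active in veins, had a median log2 fold change of 0.18, with 0 called and 7 at an unadjusted p below 0.05, and their part in the *Nr2f2* value was not tested.

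*Meox2*, a homeobox gene of mesoderm and vessels (chr12:37108540-37179534, plus strand), was the least abundant of the 10. It had 341, 311 and 295 normalized counts in controls and 359.7, 368 and 365 in mutants. The mutant pools lay above the controls and close together, with means of 316 ± 23.2 and 364 ± 4.10 (SD, n = 3). The fold change was 1.16 (95% interval 1.02 to 1.31), with an unadjusted p of 0.0268 and an adjusted p of 0.290 by limma.

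*Osr1*, a zinc-finger factor gene of the early lung mesoderm (chr12:9570116-9581500, plus strand), had 4496, 4156 and 5361 normalized counts in controls and 4439.5, 4693 and 4649.5 in mutants. Control pool 3 was the highest and control pool 2 the lowest, the reverse of *Tbx2* and *Tbx4*, and the mutants lay between them. The log2 fold change was -0.02 (95% interval -0.19 to 0.16) with a limma adjusted p of 0.949, and it was 0.09 without control pool 3.

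Levels were compared between genes as normalized counts per kilobase of exon (GENCODE M21). In control lungs *Tbx2* had the highest level, 2576 ± 403 (SD, n = 3), followed by *Osr1* (2261 ± 301), *Foxf1* (2181 ± 26.4), *Tbx4* (1096 ± 214) and *Tbx5* (1018 ± 44.8). *Tcf21* (637 ± 14.1), *Nr2f2* (602 ± 6.49), *Tbx3* (484 ± 21.6), *Foxf2* (446 ± 31.8) and *Meox2* (134 ± 9.82) came below. Neighbours in this order overlapped between pools for *Tbx2* and *Osr1*, *Osr1* and *Foxf1*, *Tbx4* and *Tbx5*, and *Tbx3* and *Foxf2*. The largest steps were 3.33-fold from *Foxf2* down to *Meox2* and 1.99-fold from *Foxf1* down to *Tbx4*. In mutants the order of levels differed only in that *Foxf1* (2234 ± 107) stood above *Osr1* (2224 ± 65.5), whose pool values overlapped.

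**Figure D3:**
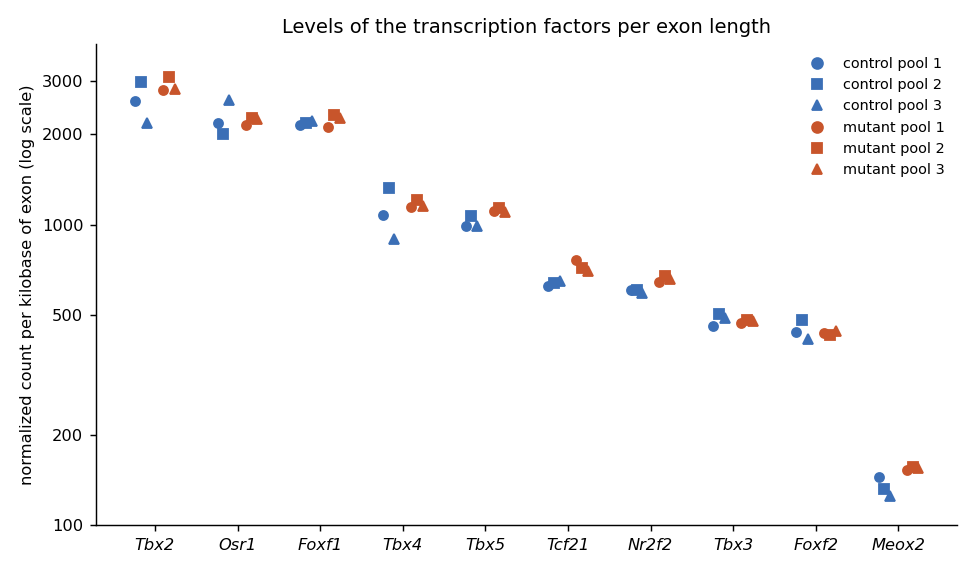
Levels of the 10 transcription factors in normalized counts per kilobase of exon (log axis), with points for pools by group and genes ordered by the control mean. *Tbx2*, *Osr1* and *Foxf1* have control means of 2181 or above, and *Meox2* is lowest at 134 in controls and 154 in mutants.

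The control pools varied more than the mutant pools for 7 of the 10 genes, beside 62% of all tested genes. The highest control value was 1.37 times the lowest for *Tbx2*, 1.48 times for *Tbx4* and 1.29 times for *Osr1*, whereas the other 7 genes had 1.02 to 1.15 and the mutant pools 1.02 to 1.10 for all 10. Control pool 3 was the lowest of the 6 pools for 6 of the 10 genes and the highest for *Osr1*. Over all tested genes it was the lowest for 24.3% and the highest for 25.4%. Relative to the mean of the 6 pools, *Tbx2* and *Tbx4* were each at -0.33 log2 units in this pool and *Osr1* at 0.22.

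Other genes shared these pool differences. The following were named after their values were seen, except *Hoxa5*, *Wnt2*, *Frzb* and *Myod1*. *Hoxa5*, a lung mesenchyme homeobox gene, and *Wnt2*, a Wnt ligand gene of distal mesenchyme, were at -0.44 and -0.43 log2 units in control pool 3, as *Tbx2* and *Tbx4* were low. *Prrx1*, *Foxc1* and *Foxc2*, factors also expressed in mesenchyme outside the lung, were at 0.41, 0.76 and 0.75, as *Osr1* was high. *Frzb*, which encodes a secreted Wnt antagonist, was at 1.36 there, and at -1.53 in control pool 2 and -1.58 in mutant pool 2.

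The skeletal muscle factor genes *Myod1* and *Myog* were at 1.30 and 1.58 log2 units in control pool 3, and at -1.47 and -1.64 in control pool 2. The 4 skeletal muscle markers summed to 145, 47.5 and 326 normalized counts in the control pools and 198, 50.004 and 167 in the mutant pools, with 0 called. The cartilage markers summed to 3419, 2913 and 4824 in controls and 4038, 2907 and 3579 in mutants. *Col2a1* and *Col9a1* gave nearly all of the cartilage sum. *Acan*, a cartilage marker with only 3.98 to 11.2 normalized counts over the pools, was instead lowest in control pool 3. The skeletal muscle and cartilage sums were both highest in control pool 3 and were low in pool 2 of each group. Their part in the values of *Tbx2*, *Tbx4* and *Osr1* was not tested.

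**Figure D4:**
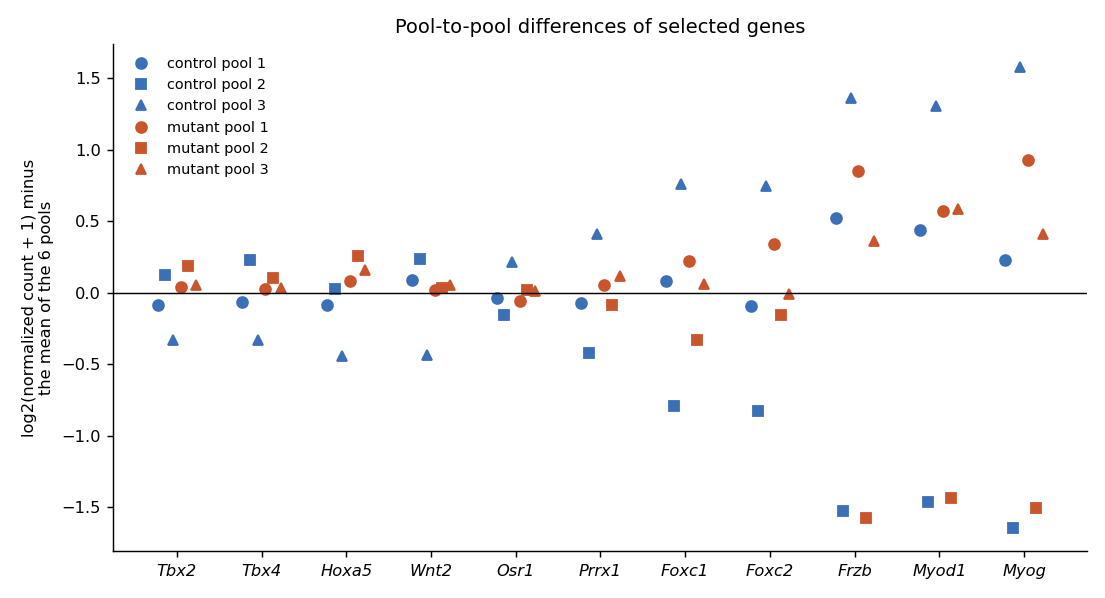
Log2(normalized count + 1) minus the mean of the 6 pools (vertical axis) for *Tbx2*, *Tbx4*, *Osr1* and 8 other genes with pool differences, with a point per pool, colours for the groups and shapes for the pool numbers. Control pool 3 is low for *Tbx2*, *Tbx4*, *Hoxa5* and *Wnt2* and high for *Osr1*, *Prrx1*, *Foxc1*, *Foxc2*, *Frzb*, *Myod1* and *Myog*.

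The 15 other mesenchymal transcription factor genes gave a similar picture, with 0 called after adjustment, a median log2 fold change of 0.16, and 11 values above 0 and 4 below on the deposited scale (scaling to the mesenchyme markers shifts all values by -0.20). Unadjusted p was below 0.05 for *Hlx* (0.36), *Zeb2* (0.19) and *Hoxa5* (0.34), with limma adjusted p of 0.176, 0.176 and 0.179, and for *Hand2* (-0.56). Across the 18 mesenchyme markers the median was 0.15, with 16 values above 0. The mean log2 value of the 10 factors minus that of the mesenchyme markers, set to an average of 0 over the pools, was 0.003, 0.04 and 0.11 in controls and -0.11, 0.03 and -0.09 in mutants, so the groups overlapped.

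Genes that mesenchymal factors act on were also listed. *Fgf10*, downstream of *Tbx4* and *Tbx5*, was the only 1 of 8 that was called. It had 603, 611 and 493 normalized counts in controls and 844, 979 and 841 in mutants, so it rose by 0.64 on the log2 scale (limma adjusted p = 0.0322), larger than the 0.11 of *Tbx4* and 0.13 of *Tbx5*; these differences between genes were not tested. *Wnt2* had 2205, 2444 and 1535 in controls and 2096, 2119 and 2152 in mutants, with overlapping groups and a limma adjusted p of 0.866. *Bmp4* had a fitted log2 change of -0.11 (limma adjusted p = 0.420). *Cdkn1b*, a cell cycle inhibitor gene, had 0.25 (limma adjusted p = 0.132), and *Wnt2b* had 0.21 (limma adjusted p = 0.205). *Cdkn1a*, also a cell cycle inhibitor gene, had -0.08 (limma adjusted p = 0.920). *Shisa3* had 0.17 and *Frzb* had -0.24 (limma adjusted p of 0.836 and 0.915).

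**Figure D5:**
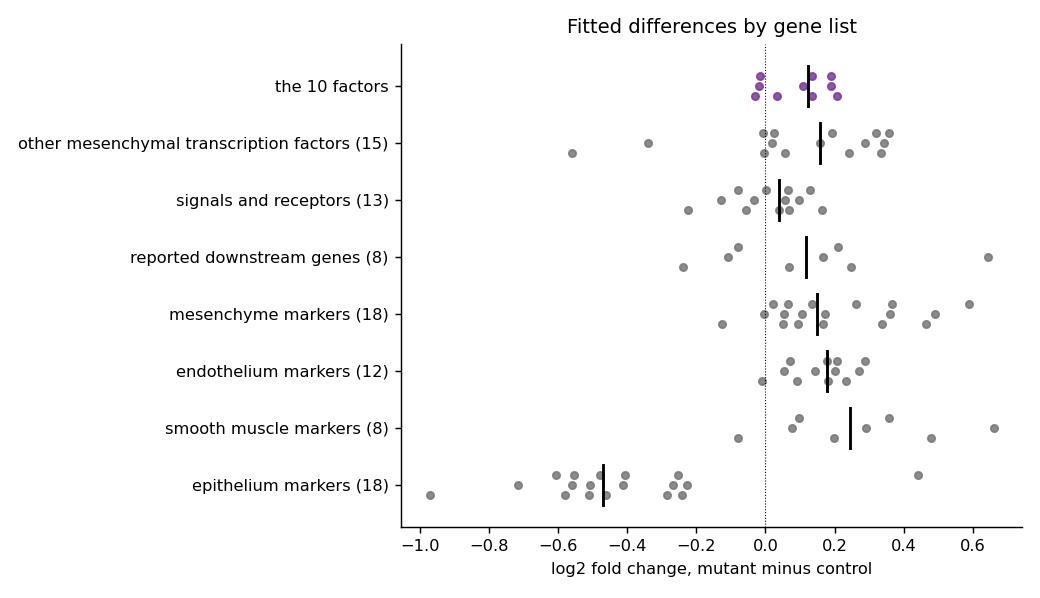
Log2 fold changes (mutant minus control, limma) of single genes (points) in the 10 transcription factors and in lists of related genes and cell type markers, with the number of genes in parentheses and each list's median as a vertical bar. The median is 0.12 for the 10 factors, 0.15 for the mesenchyme markers and -0.47 for the epithelium markers. With the average, not the median, of the mesenchyme markers as the scale, that of the 10 factors is -0.08.

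Heart tissue also expresses several of these factors and lies beside the lung. The 11 cardiac muscle markers summed to 1239 to 1362 normalized counts in controls and 947 to 1023 in mutants, with 0 called, 9 of 11 below 0 and 3 at an unadjusted p below 0.05. Their part in the values of the 10 factors was not tested.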

How the data were processed

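RNA from 3 control and 3 mutant pools of whole E11.5 lungs was sequenced. The authors deposited normalized counts, a signal obtained by scaling gene reads with library size factors. The submitters' processing notes name Trim Galore, HISAT2, featureCounts, DESeq2 and the mm10 build, and the gene annotation and strand setting are not given in the sources used here. The authors' own columns, which hold their mean, log2 fold changes with errors, a test statistic (score) and p-values, were deposited beside the values and were not used. All values were whole multiples of 1 read within 0.01 reads in the 6 libraries, although the step of control pool 3 was close to 1.

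Log2(normalized count + 1) was fitted with limma 3.58.1 (R 4.3.3, eBayes with trend) over all genes that reached a normalized count of 1 in 3 or more libraries, and p-values were adjusted over all of them (Benjamini-Hochberg). Fold changes on this scale understate changes of low genes. Pools were taken as replicates from the sample titles. The limma p-values weigh the group difference against the spread between these pools, with variances moderated over all tested genes. Alternatives were limma without trend, other scalings and filters, 0.1 as pseudocount, blocking on the replicate number, omission of each pool, edgeR 4.0.16 and DESeq2 1.42.0 on recovered reads, and, added after seeing the data, edgeR on 5 libraries. Coordinates and exon lengths came from GENCODE M21 (GRCm38) and promoters from RefSeq.

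The 10 genes and the lists were chosen with earlier results of these data known. Named genes were the 10 factors, *Rptor*, signal and downstream genes, up to 3 genes of lowest p or the defining genes of each other list, and the 5 genes most like the factor of lowest p. *Hand2*, *Lum* and *Thy1* fell outside this rule and were named for their values, in addition to the genes with pool differences given above. Of the other marker lists, mesothelium had 1 gene called (*Wt1*, higher), and smooth muscle, neural crest and neuron, macrophage, erythroid, cartilage and liver had 0 called each.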

Additional observations from a re-analysis of the deposited data

How the results depend on the processing

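None of the 10 factors was called in the reported fit or in 13 of 16 alternatives. The count was 1 with scaling to the mesenchyme markers (*Foxf2*, log2 fold change -0.23, limma adjusted p = 0.0439) and 1 with edgeR on 5 libraries (*Tcf21*, edgeR adjusted p = 0.0386), and leaving out each pool gave 0 to 1 (*Tcf21* without control pool 3). Their median of 0.12 became -0.079 with the mesenchyme scaling, which moved all genes by -0.20, and 0.077 with edgeR on 5 libraries, and it was 0.080 to 0.16 when a pool was left out. The mesenchyme scaling, set by the average of the markers, gave -0.011 for *Tbx2*, -0.090 for *Tbx4* and -0.067 for *Tbx5*. It gave -0.17 for *Foxf1*, -0.0098 for *Tcf21* and -0.065 for *Nr2f2*. No alternative used the median of the markers. With edgeR on 5 libraries *Tbx4* was -0.035 and *Osr1* 0.085. Leaving out a pool gave -0.027 to 0.25 for *Tbx4*, -0.053 to 0.010 for *Tbx3*, -0.075 to 0.026 for *Foxf2* and -0.096 to 0.087 for *Osr1*.

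Of all tested genes, 86 were called (32 higher, 54 lower), with 8 for limma without trend, 18 without a filter, 3010 with the mesenchyme scaling (19 higher, 2991 lower), 277 with DESeq2 and 545 with edgeR on 5 libraries. Leaving out a pool gave 1 (without control pool 1 or mutant pool 3) to 468 (without control pool 3), with 147 without control pool 2, 12 without mutant pool 1 and 21 without mutant pool 2. The cause was not tested. The replicate block gave 71 genes and 0 of the 10. Deviations of same-numbered pools correlated at -0.02, 0.10 and 0.03, and those of differently numbered pools at -0.11 to 0.08. Not every pool correlated best with its own number. Such correlations cannot decide whether the numbers pair the samples. The 3 ratio differences kept their direction in every alternative run, with 0.047 to 0.10 for *Tbx2* to *Tbx4*, -0.17 to -0.13 for *Tbx3* to *Tbx5* and 0.0065 to 0.12 for *Foxf1* to *Foxf2* when a pool was left out. With 3 pools against 3, the exact test cannot pass 0.05.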

Other observations

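Among 13 other T-box genes, 10 were tested and 0 were called, with a median log2 fold change of -0.23. *Tbx1*, a T-box gene of pharyngeal and second heart field mesoderm, had 472, 501 and 443 normalized counts in controls and 397, 300.02 and 386 in mutants. Its 3 mutant values were below the controls, as for 10.5% of all tested genes, with a log2 fold change of -0.40 and a limma adjusted p of 0.151. *Tbx19* was listed at 0.

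The noncoding RNA gene *Fendrr* lies 1275 bases from *Foxf1* on the opposite strand. It had 1190.5, 1089.9 and 1464 normalized counts in controls and 981, 1032 and 1084 in mutants, with separate groups, a log2 fold change of -0.26 and a limma adjusted p of 0.252, beside 0.03 for *Foxf1*. *Osr2*, the paralog of *Osr1*, had low values of 39.3, 40.3 and 20.9 normalized counts in controls and 50.1, 44.1 and 52.0 in mutants. Its groups were separate, with a log2 fold change of 0.58 and a limma adjusted p of 0.370. *Nr2f1*, the paralog of *Nr2f2*, had a fitted log2 change of 0.17 (limma adjusted p = 0.390), and 0 of the 11 paralogs and neighbours were called.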
